A study of Homo sapiens with 16 samples.

Results

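The comparison described here is the change in gene expression between 6 h and 24 h after drug withdrawal in A375, a human melanoma cell line with activated BRAF. The cells were DR A375, a derivative resistant to dabrafenib and trametinib. The labels give the cell line and the time, and by them 4 of the 16 libraries of the series were chosen: 2 at 6 h and 2 at 24 h. The fit took in all 8 A375 libraries so that they shared an estimate of the spread. All cells came from culture with dabrafenib (0.5 µM) plus trametinib (0.05 µM). The on-drug group (2 libraries) was still on that pair, and the other groups had been moved to DMSO for 6, 24 or 48 h (2 libraries each). Whether the 2 libraries of each group were grown separately is not in the labels, and a p-value here may reflect no more than technical spread from library to library. No on-drug group was given for each time, so withdrawal and time in culture or since the last change of medium cannot be told apart. The question was which parts of the first response at 6 h had reversed by 24 h, which persisted, and what appeared only later.

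BRAF and MEK are kinases that pass growth signals on to ERK; dabrafenib inhibits the former and trametinib the latter. Melanoma cells adapted to such inhibitors can show a surge of ERK signalling when the inhibitors are taken away. ERK signalling is known to switch on immediate-early genes within minutes to hours, among them transcription factors of the AP-1 and EGR families and feedback inhibitors such as dual-specificity phosphatases and Sprouty proteins, and later waves of transcription follow.

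The deposited values were read counts per gene, and gene positions below are those of the deposited table (GRCh38). Library totals were 12034153 and 11479635 counts at 6 h and 16691725 and 12156938 at 24 h. Levels below are CPM, read counts divided by the TMM-scaled library size, in the usual unit of that name, so they are relative to the other genes and are not amounts per cell; in bulk samples, fewer cells of a type and less RNA per cell cannot be told apart. Genes of the mitochondrial genome took 3.06% to 3.11% of counts at 6 h, 3.56% to 3.70% at 24 h and 4.81% to 5.53% on drug. The melanoma line was checked by its markers: SOX10, a lineage transcription factor, stood at 608 and 595 CPM at 6 h and 654 and 610.2 CPM at 24 h (adjusted p = 0.179), and MITF, MLANA, PMEL and S100B were all detected in every library. Of 27 markers of other cell types, 14 at 6 h and 13 at 24 h were at 0 or not listed, among them CD3E, CD3D and CD2 of T cells. The markers summed to 71.5 and 75.2 CPM at 6 h and to 54.4 and 55.4 CPM at 24 h, most of it KRT18, and their part in the results was not tested.

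Between 6 h and 24 h most of the measured transcriptome changed. Of 14449 genes tested, 10080 passed edgeR's quasi-likelihood test at a Benjamini-Hochberg adjusted p of 0.05, which is 69.8% of them. There were 5133 genes higher at 24 h (35.5%) and 4947 lower (34.2%). By at least 2-fold, 1656 were higher (11.5%) and 1451 lower (10%). The spread between libraries of a group was small, with a common biological coefficient of variation of 3.19%, and this lets small changes pass. Every count of list members below is to be read against these shares. Scaled by RLE size factors in place of TMM, 4970 genes were higher and 5094 lower, so the balance of small rises and falls depended on the scaling. Changes are given as log2 fold changes of 24 h against 6 h ± SE unless said otherwise.

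The change at 24 h was set beside the first change. At 6 h, 5078 genes were higher than on drug (35.1%) and 5511 lower (38.1%). At 24 h, 5234 were higher than on drug (36.2%) and 5252 lower (36.3%). Under RLE scaling 5318 were higher and 5198 lower at 6 h, and 5405 and 5113 at 24 h. DESeq2 gave 4749 and 3857 at 6 h and 4672 and 3764 at 24 h. The balance of rises and falls against on drug thus depended on the processing too. These comparisons share libraries, so the following counts describe the time courses and carry no test. Of 1498 genes that had risen by at least 2-fold at 6 h, 483 (32.2%) fell again by at least 2-fold, 138 rose further by at least 2-fold, and for 298 the 95% interval of the later change lay within 1.5-fold either way. Of 1964 genes that had fallen by at least 2-fold at 6 h, 749 (38.1%) rose again by at least 2-fold, 98 fell further and 141 persisted. The other 579 and 976 genes fell between these rules. Among 4939 genes whose 6 h change lay within 1.5-fold, 152 then rose and 201 then fell by at least 2-fold. Of the 483 genes that rose and fell, 154 had 24 h intervals within 1.5-fold of on drug, 86 were still 2-fold above it and 35 were 2-fold below it. Of the 749 that fell and rose, 247 were back within 1.5-fold, 64 were still 2-fold below and 36 were 2-fold above. Genes that are not protein coding made up 14% of all genes tested. They were 19.5% and 27.0% of those reversing after a rise and after a fall, and 14.5% and 34.7% of those rising and falling further. Their shares were 2.01% and 10.6% of those persisting high and low, and 3.29% and 11.9% of the late rises and falls. The persisting and late rules need a narrow interval, which few counts make harder to meet. How far this set the shares was not tested. The bar chart of these outcomes shows that reversal was the most frequent of the 3 outcomes in both directions. The rules are unlike, since reversing needs a called 2-fold change and persisting a narrow interval. Genes in none of the 3, 579 and 976, outnumbered those reversing.

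**Figure D1:**
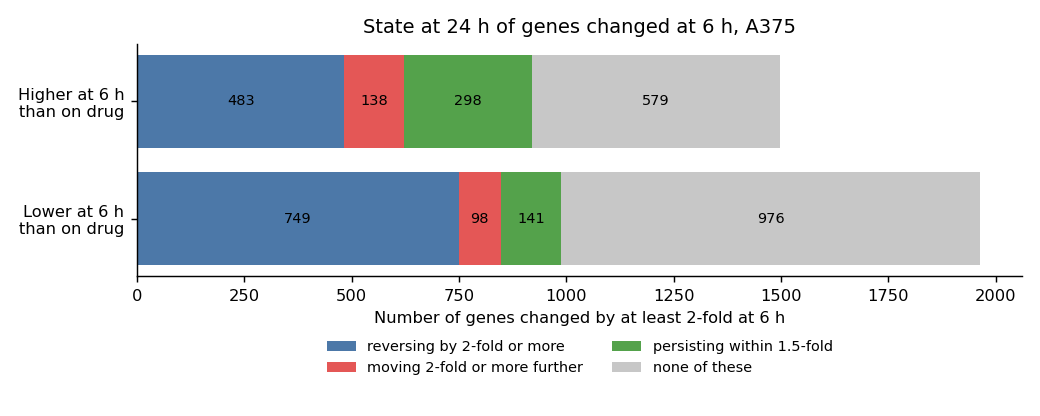
Number of genes changed by at least 2-fold at 6 h against on drug in A375 (x axis), split by their state at 24 h; the upper bar holds genes higher at 6 h and the lower bar genes lower at 6 h. Reversing by at least 2-fold holds 483 and 749 genes, moving at least 2-fold further 138 and 98, and persisting within 1.5-fold 298 and 141.

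The steepest rises after 6 h included several genes of secreted proteins. AREG (ENSG00000109321, chromosome 4, 74445134 to 74455009), which encodes the EGF receptor ligand amphiregulin, stood at 0.236 and 0.137 CPM on drug, 23.3 and 27.9 at 6 h, 742 and 731 at 24 h and 1104 and 1070.4 at 48 h. On the CPM scale most of its rise came after 6 h. The log2 fold change of 24 h against 6 h was 4.85 ± 0.07 (adjusted p = 2.61e-35), a 28.8-fold increase. GRAMD1B (ENSG00000023171, chromosome 11, 123525636 to 123627774), which encodes a protein that moves cholesterol between membranes, went from 12.5 and 10.8 CPM at 6 h to 306 and 299 at 24 h (4.70 ± 0.09, adjusted p = 4.72e-33). STC1, which encodes the secreted glycoprotein stanniocalcin, went from 47.5 and 45 to 729 and 705 CPM and reached 1420.2 and 1432 CPM at 48 h. In these 3 genes, which were chosen by their change after 6 h, both 24 h libraries lay far above both 6 h libraries. All 3 were higher still at 48 h. ADAMTS4, a matrix protease gene, rose from 0.712 and 1.3 to 30.7 and 24.4 CPM (4.79 ± 0.35, adjusted p = 3.19e-20). PTGES, which encodes the prostaglandin E synthase, rose from 1.96 and 1.4 to 50.7 and 38.8 CPM (4.74 ± 0.29, adjusted p = 3.51e-22). The collagen gene COL5A3 rose from 4.8 and 4.56 to 93.4 and 100.3 CPM (4.36 ± 0.14, adjusted p = 4.18e-28) and stood at 33.8 and 34.6 CPM at 48 h, below its 24 h level. PTPRN, a gene of secretory granules, rose from 1.51 and 1.58 to 27.6 and 24.8 CPM, a log2 change of 4.08. CD52, which encodes a small surface glycoprotein best known from lymphocytes, rose from 0.534 and 1.12 to 14 and 12.9 CPM, a log2 change of 4.03. CD52 had no counts on drug, and without the second 6 h library its change was 4.64.

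Genes that fell first and then came back were the largest of the pattern groups, with 749 members, and the steepest returns are described here. TXNIP (ENSG00000265972, chromosome 1, 145992435 to 145996600), which encodes a protein that holds back glucose uptake, stood at 50.2 and 48.4 CPM on drug, 5.25 and 6.42 at 6 h, 98 and 99.3 at 24 h and 84.6 and 97.2 at 48 h. It went from its lowest level at 6 h to 2-fold above the on-drug level, with a change after 6 h of 4.08 ± 0.14 (adjusted p = 3.94e-27). KLHL24, which encodes an adaptor of a ubiquitin ligase, stood at 39.3 and 38.1 CPM on drug, 2.22 and 1.86 at 6 h and 31.7 and 35 at 24 h (4.01 ± 0.21, adjusted p = 1.99e-22). CCNG2, the gene of the unusual cyclin G2 found in non-dividing cells, stood at 8.79 and 8.03 CPM on drug, 0.979 and 1.3 at 6 h and 10.3 and 10.3 at 24 h (3.17 ± 0.29, adjusted p = 1.11e-14). For KLHL24 and CCNG2 the 24 h levels were close to those on drug, with differences from on drug of -0.22 and 0.29 on the log2 scale. BBC3, which encodes the cell death protein PUMA, went from 0.623 and 0.651 CPM at 6 h to 7.98 and 7.1 at 24 h (3.56 ± 0.38, adjusted p = 1.04e-13) against 5.31 and 5.35 on drug. BMF, another gene of the same class of cell death proteins, came back only in part. It had 23.3 and 19.8 CPM on drug, 2 counts in the 6 h libraries together and 82 counts at 24 h (3.14 and 2.74 CPM), a ratio of 32.7 with a 95% counting interval (exact Clopper-Pearson, counting error only) of 8.76 to 274. ZC3H6, a zinc finger gene, rose from 2.31 and 3.35 to 39 and 40.5 CPM after 6 h, RMI2, a gene of DNA repair, from 1.33 and 1.95 to 19.6 and 17.5 CPM, and ADAMTS6, a protease gene, from 1.07 and 1.3 to 12.3 and 12.6 CPM.

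Genes that rose first and were low again at 24 h included matrix and clock genes. THBS1 (ENSG00000137801, chromosome 15, 39581079 to 39599466), which encodes the matrix protein thrombospondin, stood at 4.43 and 5.9 CPM on drug, 87.3 and 80.1 at 6 h, 2.07 and 1.63 at 24 h and 1.94 and 1.26 at 48 h. Its pulse was over by 24 h and left it below the on-drug level: the change after 6 h was -5.47 ± 0.21 (adjusted p = 1.08e-27), and against on drug it was -1.44 ± 0.24 (adjusted p = 8.69e-07). PER2, which encodes a repressor of the circadian clock, stood at 9.44 and 10.6 CPM on drug, 32.8 and 32.8 at 6 h and 3.14 and 2.74 at 24 h (-3.46 ± 0.17, adjusted p = 7.88e-22). CTGF, a matrix-associated target of YAP and TGF-beta signalling, stood at 12 and 13.9 CPM on drug, 49.3 and 39.9 at 6 h and 5.53 and 5.13 at 24 h (-3.06 ± 0.15, adjusted p = 3.47e-21). Both genes thus also ended below on drug. KCNK13, a potassium channel gene, and SERPINB8, a protease inhibitor gene, stayed above on drug. KCNK13 stood at 0.413 and 0.549 CPM on drug, 22.3 and 27.4 at 6 h and 2.14 and 1.28 at 24 h. SERPINB8 stood at 1.06 and 0.892 CPM on drug, 29 and 28 at 6 h and 2.95 and 2.4 at 24 h. The host gene of a microRNA, MIR22HG, fell from 12.5 and 11.4 to 1.63 and 0.513 CPM, a change of -3.36 that was -4.51 without the first 24 h library.

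Other genes fell steeply after 6 h without a first rise of 2-fold. NCOA5 (ENSG00000124160, chromosome 20, 46060985 to 46089952), which encodes a coregulator of nuclear receptors, stood at 41.4 and 44.5 CPM on drug, 57.4 and 59.6 at 6 h and 3.27 and 3.94 at 24 h (-4.04 ± 0.16, adjusted p = 1.30e-24). ABCB5, a transporter gene known from pigment cells and melanoma, stood at 14.4 and 15.2 CPM on drug, 12.4 and 10.5 at 6 h and 1.07 and 1.2 at 24 h (-3.34 ± 0.27, adjusted p = 7.90e-16). SORBS2, which encodes an adaptor of the actin skeleton, was flat at 6 h and then fell from 16.5 and 17.1 to 2.14 and 2.14 CPM (-2.97 ± 0.20, adjusted p = 3.06e-17). All 3 genes were within 1.5-fold of on drug at 6 h, and the fall came later. KRCC1, GIMAP5, AP5Z1, TAOK2 (a kinase gene) and CUBN (a gene of an uptake receptor) had the same course, with later changes of -2.43, -2.39, -2.03, -2.0 and -1.92 on the log2 scale.

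The late rises were led by a gene of cell junctions. DSP (ENSG00000096696, chromosome 6, 7541575 to 7586717), which encodes the desmosome protein desmoplakin, stood at 29.4 and 25.7 CPM on drug, 28.2 and 26.7 at 6 h, 317 and 347 at 24 h and 778 and 697 at 48 h. At 6 h its level did not differ detectably from on drug (-0.01 ± 0.09, adjusted p = 0.944), and the later change was 3.59 ± 0.08 (adjusted p = 7.75e-30). LPAR6, which encodes a receptor for lysophosphatidic acid, stood at 15.9 and 16.4 CPM on drug, 18.1 and 16.4 at 6 h and 119 and 116 at 24 h (2.76 ± 0.08, adjusted p = 4.54e-26). EEF1A2, a translation elongation factor gene known mainly from neurons and muscle, rose from 16.6 and 13.3 to 93.8 and 89.2 CPM (2.61 ± 0.11, adjusted p = 2.78e-22) and stood at 143 and 159 CPM at 48 h. UBALD2 and ZNF385A had later changes of 2.45 ± 0.08 and 2.45 ± 0.12. In each of these 5 genes both 24 h libraries lay above both 6 h libraries, which their choice by a large called change favours.

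Among the genes that persisted, the signalling adaptor TRAF1 stood at 0.118 and 0.0686 CPM on drug, 51.9 and 54.5 at 6 h, 61.2 and 61.2 at 24 h and 50 and 46.3 at 48 h. IL7R, which encodes the interleukin 7 receptor, stood at 2.12 and 2.33 CPM on drug, 63.3 and 70.8 at 6 h and 62 and 59.4 at 24 h, with a later change of -0.14 ± 0.06 (adjusted p = 0.0507). It passed the test in 5 of 15 alternatives, at -0.22 without the first 6 h library. The phosphatase gene DUSP5 and the ERK-responsive gene IER3 moved from 214 and 204 to 261 and 237 CPM and from 571 and 578 to 727 and 646 CPM between 6 h and 24 h, small rises that passed the test. The small rise of TRAF1 passed it too. These genes thus stayed within 1.5-fold of the level reached in the first 6 h, which does not mean unchanged. MDGA1 and SPOCD1 also met the rule for persisting, with later changes of 0.47 and 0.37 that passed the test. On the low side, SOX6, which encodes a transcription factor of neural crest cells, stood at 95.3 and 100.2 CPM on drug, 19.9 and 16.3 at 6 h and 14.6 and 16.9 at 24 h (-0.22 ± 0.11, adjusted p = 0.084). The change of SOX6 passed without the second 6 h library (-0.35, adjusted p = 0.0208) or without the second 24 h library (-0.31, adjusted p = 0.0378). TNS3, a gene of focal adhesions, stood at 195 and 188 CPM on drug, 40.5 and 39.7 at 6 h and 35.9 and 38.8 at 24 h. ZEB2, which encodes a transcription factor of the melanocyte lineage, stood at 163 and 157 CPM on drug, 33 and 39.4 at 6 h and 45.5 and 45.4 at 24 h. Its small rise after 6 h passed the test. The libraries of 6 h and 24 h overlapped in SOX6, UNC5C, PKIA and SAMD9L, and in TNS3 and ZEB2 they were apart by less than 1.5-fold. UNC5C, a guidance receptor gene, had 2.94 and 2.33 CPM at 6 h and 2.14 and 3.42 at 24 h against 26 and 24.6 on drug.

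**Figure D2:**
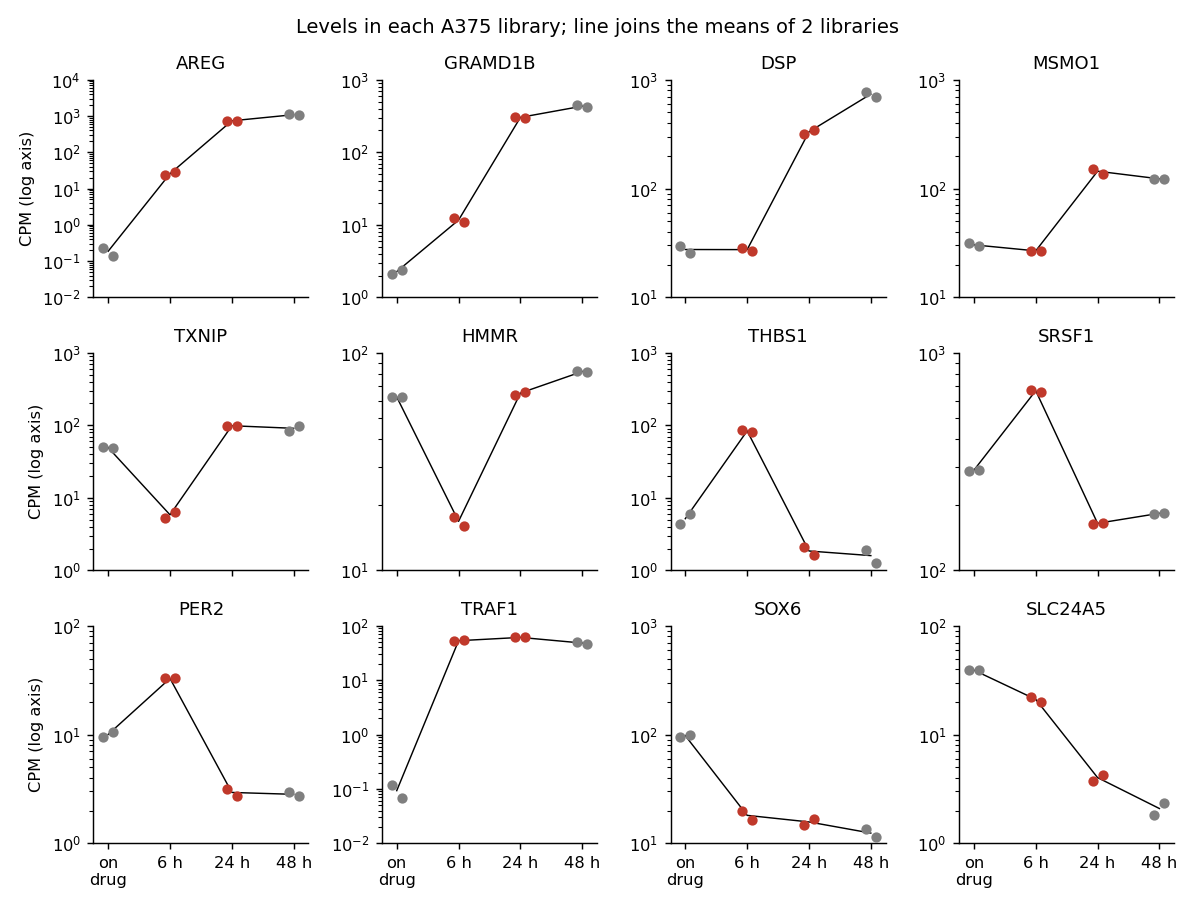
CPM (log axis, set for each gene) in each A375 library on drug and at 6, 24 and 48 h off drug for 12 genes; each dot is 1 library, red at 6 h and 24 h, and the line joins the means. AREG, GRAMD1B, DSP and MSMO1 rise after 6 h, and AREG also rises steeply before it. TXNIP and HMMR dip at 6 h, and THBS1, SRSF1 and PER2 peak at 6 h. TRAF1 and SOX6 stay near their 6 h levels, and SLC24A5 declines throughout.

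Genes of cell division, which had fallen at 6 h, rose together by 24 h. Of 32 genes of G2 and mitosis tested, 28 rose between 6 h and 24 h, 13 of them by at least 2-fold, and 0 fell, with a median log2 change of 0.87 against 0.02 over all genes. At 6 h, 29 of the 32 had been lower than on drug and 0 higher (median -0.77). At 24 h the list stood near the on-drug level (median -0.08), with 11 genes above it and 15 below. HMMR (ENSG00000072571, chromosome 5, 163460203 to 163491945), which encodes a spindle protein, stood at 62.5 and 62.8 CPM on drug, 17.6 and 16 at 6 h, 64.3 and 66.3 at 24 h and 82.1 and 81.8 at 48 h (1.95 ± 0.08, adjusted p = 2.47e-21). KIF20A, a mitotic kinesin gene, stood at 136 and 131 CPM on drug, 29.4 and 28.5 at 6 h and 87 and 86.6 at 24 h (1.59 ± 0.07, adjusted p = 6.93e-20). TTK, the gene of a spindle checkpoint kinase, stood at 55.3 and 53.7 CPM on drug, 23.1 and 20.5 at 6 h and 71.5 and 76.1 at 24 h (1.75 ± 0.08, adjusted p = 1.68e-20). At 24 h HMMR was near the on-drug level (0.06 ± 0.06, adjusted p = 0.373), TTK above it and KIF20A still below. TOP2A, which encodes the topoisomerase of dividing cells, went from 235 and 251 to 528 and 562 CPM (1.16 ± 0.05, adjusted p = 2.00e-21). The 4 members that did not pass, named after their values were seen, were FOXM1, KIF11, KIF23 and CENPA, with changes of -0.11, -0.02, 0.02 and 0.23. FOXM1 encodes a transcription factor of mitotic genes and stood at 110.1 and 118 CPM on drug, 58.9 and 64.6 at 6 h and 56.5 and 58.1 at 24 h.

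Promoters of mitotic genes are known for 2 short motifs, the cell cycle homology region (CHR) and the CCAAT box, and the members moved together, so the promoters were searched for TTTGAA and CCAAT on both strands, in the 250 bases before the start of each gene in RefSeq (GRCh38.p14, first listed start). Of the 32 genes 26 had an entry. TTTGAA was found in 13 of 26 (50%), against 8.32% of the 9930 tested genes with an entry, and CCAAT in 21 of 26 (80.8%), against 35.3%. The genes higher by at least 2-fold at 24 h over the whole table held TTTGAA in 9.61% of promoters and CCAAT in 38.9%. CCAAT was as frequent in the cholesterol list described below, in 15 of 18 promoters (83.3%). Other motifs were searched in other lists: the sterol element TCACNCCAC stood in 1 of 18 cholesterol promoters (0.876% of all) and in 0 of 11 of fatty acid synthesis. The E-box CACGTG stood in 1 of 21 of ribosome biogenesis (9.06% of all), and the hypoxia motif ACGTG in 6 of 13 hypoxia and 8 of 19 glycolysis promoters (23.7% of all). The cyclic AMP element TGACGTCA stood in 1 of 20 immediate-early promoters (2.89% of all) and the serum response element in 2 of 20 (0.977%). The AP-1 motif TGANTCA stood in 3 of 10 cytokine promoters (3.90% of all) and TGATGCAA in 1 of 18 of the amino acid response (0.363%). A match is a description of letters, not of a bound site. Among the members that did not pass, KIF11, KIF23 and CENPA each held both TTTGAA and CCAAT on one strand or the other. Shown are 3 members that rose, CCNB2 (cyclin B2), HMMR and CDC20 (an activator of the anaphase-promoting complex), and KIF11, a spindle motor gene that holds both motifs and did not pass. They were chosen after their values were seen. Each is the 130 bases before the start, 5′ to 3′ on the plus strand, with matches to either motif on either strand in capitals, and where such matches touch or overlap they form a single run. The stretches lie at chr15:59105016-59105145, chr5:163460502-163460631, chr1:43358851-43358980 and chr10:92593000-92593129 in that order. The HMMR stretch lies inside the HMMR positions given above, which are those of the deposited table and begin before the RefSeq start used here.
CCNB2: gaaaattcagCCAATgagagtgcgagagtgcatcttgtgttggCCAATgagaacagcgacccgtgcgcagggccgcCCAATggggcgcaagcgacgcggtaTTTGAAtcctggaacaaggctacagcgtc
HMMR: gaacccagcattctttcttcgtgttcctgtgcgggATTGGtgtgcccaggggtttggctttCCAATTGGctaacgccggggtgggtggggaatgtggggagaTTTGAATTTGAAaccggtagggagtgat
CDC20: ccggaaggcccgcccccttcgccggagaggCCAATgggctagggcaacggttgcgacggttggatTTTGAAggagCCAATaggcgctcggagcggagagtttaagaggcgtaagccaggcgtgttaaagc
KIF11: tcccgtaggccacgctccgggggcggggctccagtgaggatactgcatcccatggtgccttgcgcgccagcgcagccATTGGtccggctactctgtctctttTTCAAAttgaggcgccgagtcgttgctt
CCNB2 stood at 21.3 and 23.1 CPM at 6 h and 60.5 and 57.5 at 24 h (1.42 ± 0.08, adjusted p = 1.88e-17), CDC20 at 64.1 and 62.9 CPM at 6 h and 127 and 111 at 24 h (0.92 ± 0.07, adjusted p = 1.55e-14), and KIF11 at 49.7 and 50.2 CPM at 6 h and 46.8 and 52.2 at 24 h (-0.02 ± 0.07, adjusted p = 0.817). CCNB2 and CDC20 were apart between the times and KIF11 overlapped, and all 4 sequences hold both motifs.

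Genes of DNA replication moved less uniformly. Of 34 tested, 17 rose after 6 h, 7 of them by at least 2-fold, and 8 fell (median 0.13). MCM2, a subunit of the replicative helicase, stood at 141 and 138 CPM on drug, 55.5 and 57 at 6 h and 149 and 141 at 24 h (1.37 ± 0.06, adjusted p = 8.34e-21), with a difference from on drug at 24 h of 0.05 ± 0.05 (adjusted p = 0.324). RFC4, a subunit of the clamp loader, rose from 17.2 and 15.9 to 46.5 and 47.7 CPM (1.51 ± 0.09, adjusted p = 3.15e-17). RRM2, a subunit of the enzyme that makes deoxynucleotides, fell from 263 and 262 to 168 and 162 CPM (-0.67 ± 0.05, adjusted p = 2.18e-14) and stayed above its on-drug level of 123 and 129.7 CPM. The E2F motifs TTTCCCGC or TTTGGCGC stood in 13 of the 29 matched promoters of this list (44.8%), against 3.14% of all. Among inhibitors of the cell cycle and targets of p53, 13 of 25 rose and 6 fell. CDKN1A, the gene of p21, eased from 588 and 547 to 465 and 447 CPM (named after its values were seen). BTG1, an antiproliferative gene, rose from 68.2 and 68.5 to 147 and 141 CPM (1.08 ± 0.06, adjusted p = 5.88e-18), and MDM2, which restrains p53, fell from 205 and 211 to 139 and 152 CPM (-0.52 ± 0.05, adjusted p = 2.79e-10).

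Genes of ribosome production and of splicing went the other way. All 28 genes of ribosome biogenesis had risen at 6 h (median 1.08), and 26 of the 28 fell between 6 h and 24 h, 8 of them by at least 2-fold, with 0 higher (median -0.71). DKC1 (ENSG00000130826, chromosome X, 154762742 to 154777689), which encodes the enzyme that makes pseudouridine in ribosomal RNA, stood at 195 and 199 CPM on drug, 525 and 522 at 6 h, 190.2 and 192 at 24 h and 217 and 212 at 48 h. Its rise was gone at 24 h: the later change was -1.45 ± 0.04 (adjusted p = 1.08e-24) and the difference from on drug -0.04 ± 0.04 (adjusted p = 0.39). Among genes whose proteins act on ribosomal RNA precursors, NOP56 fell from 514 and 511 to 209.5 and 218 CPM, NOP58 from 324 and 329.6 to 133 and 131 CPM and WDR43 from 443 and 447 to 173 and 187 CPM. The list as a whole returned only in part, with 21 of 28 genes still above on drug at 24 h and 2 below (median 0.52). BOP1 and FBL (fibrillarin) did not pass, at 0.09 ± 0.05 and 0.09 ± 0.05, and were named after their values were seen. The ribosomal proteins themselves barely moved, with 14 of 26 higher, 2 lower and 0 past 2-fold (median 0.12); their counts can be shared with near-identical pseudogenes.

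Of 17 regulators of splicing and RNA decay, 12 fell after 6 h, 7 of them by at least 2-fold, and 4 rose (median -0.73). SRSF1 (ENSG00000136450, chromosome 17, 58003360 to 58007346), which encodes a serine and arginine rich splicing factor, stood at 288 and 289.6 CPM on drug, 676 and 662 at 6 h, 164 and 166 at 24 h and 182 and 184 at 48 h (-2.02 ± 0.04, adjusted p = 9.74e-29). SRSF2 stood at 238 and 246 CPM on drug, 527 and 518 at 6 h and 120.1 and 122 at 24 h (-2.11 ± 0.05, adjusted p = 2.93e-28). SRSF6 stood at 111 and 119 CPM on drug, 189 and 201 at 6 h and 56.4 and 59.9 at 24 h (-1.75 ± 0.06, adjusted p = 1.20e-23). These 3 splicing factor genes peaked at 6 h and then dropped below the on-drug level, with differences from it of -0.81, -1.0 and -0.99 on the log2 scale. SRSF7, of the same family, peaked at 369.7 and 370.5 CPM and at 24 h stood at 143 and 149 CPM, near its 137 and 142 CPM on drug (adjusted p = 0.26). The members that rose were ZFP36, which encodes a protein that speeds the decay of cytokine mRNAs (15.2 and 13.9 to 58.6 and 52.9 CPM, 1.94 ± 0.10, adjusted p = 1.85e-19), its relative ZFP36L1, and CLK1 and CLK4, kinases of splicing factors, with changes of 0.58, 0.94 and 0.42; ZFP36L1 and CLK4 were named after their values were seen.

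**Figure D3:**
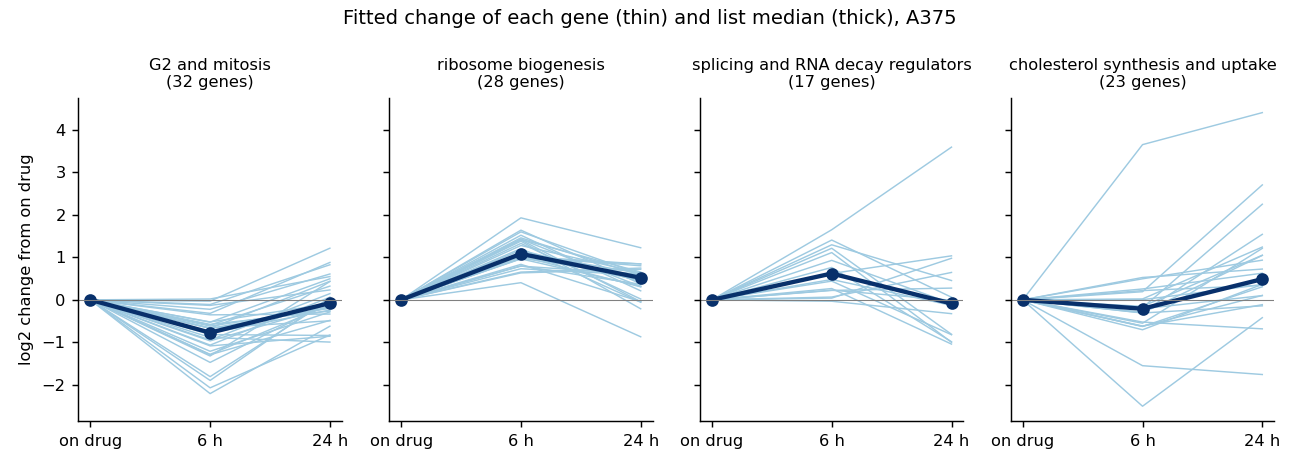
Fitted log2 change from on drug (y axis) at 6 h and 24 h for each gene of 4 lists (thin lines) and the list median (thick line) in A375. The median goes from -0.77 to -0.08 for G2 and mitosis, from 1.08 to 0.52 for ribosome biogenesis, from 0.62 to -0.09 for splicing and RNA decay regulators and from -0.21 to 0.49 for cholesterol synthesis and uptake.

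Genes of cholesterol supply rose late. Of 23 tested, 19 rose between 6 h and 24 h, 9 of them by at least 2-fold, and 0 fell (median 0.73), while at 6 h 14 had been lower than on drug and 6 higher. MSMO1 (ENSG00000052802, chromosome 4, 165327623 to 165343160), an enzyme of late cholesterol synthesis, stood at 31.4 and 29.4 CPM on drug, 26.8 and 26.7 at 6 h and 153 and 136 at 24 h (2.44 ± 0.08, adjusted p = 2.47e-25). MSMO1 was within 1.5-fold of on drug at 6 h and by 24 h stood above it by more than 2-fold, and its 48 h levels were 123 and 123 CPM. STARD4, which encodes a cholesterol carrier, rose from 19.8 and 17.8 to 67.3 and 66.5 CPM (1.83 ± 0.09, adjusted p = 2.48e-20). INSIG1, a sterol sensor of the pathway, differed in that it had already risen at 6 h, from 26.4 and 25.2 to 342 and 307 CPM, and it reached 579.5 and 515 CPM at 24 h. The members that did not pass were TM7SF2, LSS, PMVK and CYP51A1, and both they and INSIG1 were named after their values were seen. Fatty acid synthesis was mixed, with 5 of 12 genes higher, among them ACSL3 (859.7 and 856 to 1776 and 1845 CPM, 1.08 ± 0.04, adjusted p = 5.03e-22) and FASN (0.44), and 3 lower, among them ELOVL5 and ELOVL6, at -0.58 and -0.58.

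The output of the ERK pathway itself was split. Of 22 genes tested, 11 fell after 6 h and 10 rose (median -0.24). Against on drug the list as a whole stayed high, with a median of 1.68 at 6 h and 1.83 at 24 h. At least 2-fold above on drug were 13 genes at 6 h and 16 at 24 h. At 24 h 18 were above on drug, among them ETV4 and ETV1, which had not been above it at 6 h. DUSP6, the ERK phosphatase gene most often read as a gauge of the pathway, stood at 29.2 and 30.3 CPM on drug, 334 and 334 at 6 h, 134 and 142 at 24 h and 158 and 151 at 48 h (-1.28 ± 0.05, adjusted p = 4.21e-22). The feedback inhibitor SPRY4 eased from 674 and 649 to 473 and 458 CPM (-0.51 ± 0.04, adjusted p = 7.86e-13), and CCND1, the gene of cyclin D1, from 383 and 389 to 310.2 and 307 CPM (-0.32 ± 0.04, adjusted p = 9.37e-08). The AP-1 gene FOSL1 fell from 189.9 and 176 to 109 and 95.9 CPM (-0.83 ± 0.06, adjusted p = 1.63e-14). All 4 were lower at 24 h than at 6 h and still above on drug. The ETS factor genes ETV4 and ETV1 went up instead, ETV4 from 60.5 and 56.7 to 139.7 and 135 CPM (1.23 ± 0.06, adjusted p = 1.18e-18) after a 6 h level within 1.5-fold of on drug, and ETV1 from 40.5 and 34.4 to 95.1 and 95.1 CPM (1.34 ± 0.07, adjusted p = 1.07e-18) after a fall.

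Immediate-early genes mostly rose after 6 h. Of 28 tested, 21 rose, 11 of them by at least 2-fold, and 5 fell (median 0.77). The orphan nuclear receptor genes NR4A1 and NR4A2 rose most, NR4A1 from 57.4 and 56.1 to 433 and 384 CPM (2.85 ± 0.07, adjusted p = 5.82e-28) and NR4A2 from 78.4 and 73 to 560.4 and 522 CPM (2.84 ± 0.05, adjusted p = 1.58e-30). EGR1, a zinc finger factor gene, rose from 349 and 355 to 736 and 684 CPM (1.01 ± 0.04, adjusted p = 2.16e-20) and JUNB from 46.4 and 44.4 to 135 and 119 CPM (1.49 ± 0.07, adjusted p = 2.71e-20). Genes known for responses within the first hours were higher at 24 h than at 6 h in all 4 of these cases. For NR4A1, NR4A2 and JUNB, the choice by a small adjusted p favours a clear change. FOS, a founding member of AP-1, was low throughout, at 9.61 and 9.77 CPM at 6 h and 15.9 and 17.2 at 24 h (0.77 ± 0.12, adjusted p = 1.12e-06). Its partner JUN fell from 76.6 and 73.6 to 41.1 and 37.3 CPM (-0.93 ± 0.07, adjusted p = 2.48e-14), below its 48.8 and 47.3 CPM on drug, and KLF10, a gene induced by TGF-beta, fell from 149 and 149.9 to 48.8 and 52.7 CPM (-1.57 ± 0.06, adjusted p = 2.19e-22). The others that fell were TRIB1, CYR61 and IER5, at -0.68, -0.47 and -0.28, named after their values were seen. Of 11 AP-1 factors 8 rose and 2 fell. JUND stood at 39.9 and 40.7 CPM on drug, 13.6 and 12.3 at 6 h and 34.6 and 30.2 at 24 h (1.33 ± 0.10, adjusted p = 6.40e-14), a fall and a return. MCL1, a survival gene of the BCL2 family that is in the immediate-early list too, rose from 1188 and 1182 to 2464 and 2416 CPM (1.04 ± 0.04, adjusted p = 8.17e-22). BCL2A1, of the same family, fell from 181 and 178 to 111 and 104 CPM (-0.74 ± 0.05, adjusted p = 1.18e-14). Of 19 apoptosis regulators 8 rose and 8 fell.

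Of 5 genes of the EGF receptor and its ligands 3 rose and 1 fell. Beside AREG, TGFA rose from 55.5 and 54.4 to 100.3 and 97.5 CPM (0.85 ± 0.06, adjusted p = 1.10e-14), BTC had 1 count at 6 h and 26 at 24 h over both libraries (log2 change 4.11, or 6.65 and 3.28 without the first or the second 6 h library), and HBEGF had a change of -0.09 (adjusted p = 0.27; named after its values were seen). EGFR, their receptor, fell from 37.5 and 32.5 to 19 and 16.9 CPM (-0.95 ± 0.10, adjusted p = 6.93e-11). Of 13 cytokines and chemokines 9 rose and 2 fell; the median was 1.30, or 1.26 with IL1A, which had no counts at 6 h, at its bound of 1.86-fold. CXCL8, the neutrophil attractant interleukin 8, stood at 230.3 and 232 CPM at 6 h and 1099 and 1017 at 24 h (2.19 ± 0.05, adjusted p = 3.13e-29). IL24, a secreted relative of interleukin 10, rose from 68.6 and 62.1 to 209.7 and 227 CPM (1.74 ± 0.06, adjusted p = 1.02e-22), and VEGFA, the angiogenic factor, from 220.4 and 198 to 447 and 439 CPM (1.08 ± 0.05, adjusted p = 4.94e-20). IL24 and VEGFA were lower again at 48 h, with 128 and 133 CPM for IL24 and 253 and 261 CPM for VEGFA, while CXCL8 stood at 1635 and 1598 CPM. IL11 went from 128 and 119 to 304 and 289 CPM and back to 112 and 117 CPM at 48 h. LIF, of the interleukin 6 family, fell from 3534 and 3453 to 2067 and 2002 CPM (-0.78 ± 0.04, adjusted p = 5.61e-18) and stayed far above its 4.96 and 4.6 CPM on drug. The other member that fell was CCL20, a chemokine gene at 6.58 and 6.33 CPM at 6 h and 3.58 and 3.85 at 24 h.

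The NF-kB subunit genes NFKB2 and NFKB1 went opposite ways. NFKB2 stood at 24.7 and 24.1 CPM on drug, 30.8 and 28.3 at 6 h and 122 and 116 at 24 h (2.01 ± 0.07, adjusted p = 5.77e-23). NFKB1 stood at 40.2 and 41.1 CPM on drug, 92.9 and 92.9 at 6 h and 46.1 and 43.3 at 24 h (-1.05 ± 0.06, adjusted p = 6.33e-17). NFKB1 thus had a pulse at 6 h, and NFKB2 a late rise. Of 16 genes of this list 7 rose and 4 fell (median 0.14). Of 22 interferon response and antigen presentation genes, 13 had been lower at 6 h than on drug and 18 rose after it, 9 by at least 2-fold (median 0.84); only IFIT3 fell, from 3.91 and 4.65 to 1.82 and 2.57 CPM. TAP1, a peptide transporter for antigen presentation, stood at 39.6 and 36.4 CPM on drug, 24.6 and 23.9 at 6 h and 53.7 and 54.5 at 24 h (1.16 ± 0.08, adjusted p = 3.88e-15). HLA-B rose from 80.5 and 78.7 to 149 and 141 CPM (0.87 ± 0.05, adjusted p = 5.56e-16). Reads of HLA genes can be shared among them, so its value is uncertain. Several classic interferon genes that rose were at low levels, such as MX1 at 0.623 and 1.02 CPM at 6 h and 2.7 and 2.65 at 24 h (named after its values were seen).

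Genes of pigment cells did not return as a group. Of 19 tested, 15 had been lower at 6 h than on drug, and between 6 h and 24 h 8 rose and 8 fell (median 0.07). Several members fell at both steps, among them DCT, a pigment enzyme gene, which stood at 3119 and 3218 CPM on drug, 1655 and 1689 at 6 h, 642 and 686 at 24 h and 94 and 103 at 48 h (-1.33 ± 0.04, adjusted p = 1.79e-23). MLANA, the gene of the antigen Melan-A, stood at 188 and 202 CPM at 6 h and 75 and 71.2 at 24 h (-1.41 ± 0.06, adjusted p = 2.63e-21), and SLC24A5, a cation exchanger of melanosomes, at 22.2 and 19.9 CPM at 6 h and 3.77 and 4.28 at 24 h (-2.40 ± 0.15, adjusted p = 4.16e-17). All 3 fell at 6 h as well, and their levels at 48 h lay below those at 24 h. PMEL and GPNMB, genes of melanosome proteins, also fell after 6 h (-0.56 and -0.65). RAB27A and RAB38, genes of melanosome transport, rose (0.48 and 0.63) and TYR, the gene of tyrosinase, did not pass (0.06 ± 0.04, adjusted p = 0.239). These 5 were named after their values were seen. TYRP1, a pigment enzyme gene, had 100 counts at 6 h and 5 at 24 h over both libraries, and its change of -4.58 was -8.83 without the first 24 h library and -3.81 without the second. MITF, the lineage regulator of these genes, rose after its first fall: it stood at 415 and 405 CPM on drug, 55.8 and 63.8 at 6 h, 111 and 123 at 24 h and 44.1 and 44.3 at 48 h (0.97 ± 0.06, adjusted p = 1.71e-15). ERBB3, a receptor gene, likewise stood at 456 and 456 CPM on drug, 63.4 and 60.6 at 6 h and 154 and 158 at 24 h (1.33 ± 0.06, adjusted p = 4.27e-21). Both remained below on drug at 24 h. S100B, a neural crest marker used to check the line, was within 1.5-fold of on drug at 6 h and then fell from 104 and 116 to 38.5 and 33.2 CPM (-1.60 ± 0.07, adjusted p = 2.00e-20).

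Of the 98 genes that fell further after a first fall, 3 are described here. ESRP1, an epithelial splicing regulator, stood at 27.7 and 29.8 CPM on drug, 8.99 and 9.96 at 6 h and 1.95 and 1.45 at 24 h (-2.44 ± 0.23, adjusted p = 7.04e-13). GALNT3, a glycosyltransferase gene, stood at 22.9 and 22 CPM on drug, 1.07 and 1.49 at 6 h and 0.189 and 0.0856 at 24 h, a change after 6 h of -3.05 that was -3.75 without the first 24 h library. ICOS, a gene best known from T cells, stood at 11 and 11.7 CPM on drug, 1.51 and 3.54 at 6 h and 0.377 and 0.685 at 24 h, with a change of -2.28 that was -1.56 without the second 6 h library. No T cell marker was listed with a count. Of the markers of other cell types, PTPRC, the pan-leukocyte gene, fell by the test from 1.6 and 0.744 to 0.44 and 0.428 CPM, but not without the first 6 h library (-0.76, adjusted p = 0.348), without the first 24 h library (adjusted p = 0.0669) or with DESeq2 (adjusted p = 0.0937). LUM, a matrix gene, and KRT18, a keratin gene, had changes of -1.25 and -0.40, and COL1A1, a collagen gene, one of 1.34 with 1.01 and 1.11 CPM at 24 h. The COL1A1 call was lost in 7 of 15 alternatives, among them each that left out a 6 h or 24 h library.

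Mesenchymal and receptor genes were mixed. Of 26 mesenchymal and invasive genes 8 rose after 6 h and 10 fell (median 0.02), and 17 stood above on drug at 24 h. ITGA3, an integrin gene, rose from 171 and 166 to 501 and 485 CPM (1.55 ± 0.05, adjusted p = 7.36e-25), and SPARC, a matrix gene, from 907 and 872 to 1876 and 1779 CPM (1.04 ± 0.04, adjusted p = 5.89e-21). CD44, a surface receptor of matrix hyaluronan, stood at 1116 and 1079 CPM on drug, 2012 and 1966 at 6 h and 957 and 945 at 24 h (-1.06 ± 0.04, adjusted p = 7.65e-22). AXL, a receptor tyrosine kinase of invasive melanoma, rose from 2.58 and 2.79 to 20.7 and 21.1 CPM (2.96 ± 0.21, adjusted p = 4.59e-17) and was at 12.5 and 13.6 CPM at 48 h. Of 19 receptor tyrosine kinases 10 rose and 5 fell. INSR, the insulin receptor gene, rose from 11.7 and 12.2 to 42.9 and 43.2 CPM (1.85 ± 0.10, adjusted p = 2.69e-18). FGFR1, a fibroblast growth factor receptor gene, fell from 195 and 202 to 95 and 83.1 CPM (-1.15 ± 0.06, adjusted p = 1.86e-18). Among 18 YAP and TGF-beta targets 7 rose and 8 fell. ANKRD1, a YAP target, had 1.33 and 1.12 CPM at 6 h and no counts at 24 h, so it was at least 11.3-fold lower, taking 3 counts over the 24 h libraries as the limit of detection. INHBA, which encodes an activin subunit, reached 4161 and 4307 CPM from 1629.9 and 1700.3 (1.35 ± 0.04, adjusted p = 2.06e-24). TGFBI, a matrix gene, rose to 160.1 and 140.0 from 36.8 and 36.2 CPM (2.04 ± 0.08, adjusted p = 8.45e-23), while SKIL, a repressor of TGF-beta signalling, fell to 26.7 and 30.3 from 106 and 108 CPM (-1.92 ± 0.07, adjusted p = 3.80e-22).

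Metabolic and stress genes showed single members far from their lists. Of 20 glycolysis genes 17 rose, most of them by less than 1.5-fold (median 0.32), while HK2, the hexokinase of proliferating cells, stood at 140.3 and 140.1 CPM on drug, 705 and 686 at 6 h and 249.8 and 258 at 24 h (-1.46 ± 0.04, adjusted p = 1.94e-24). The glucose transporter gene SLC2A3 rose from 91 and 87.6 to 178 and 173 CPM (0.97 ± 0.05, adjusted p = 6.83e-18) and SLC2A1 had a change of -0.38. In the hypoxia list 11 of 17 rose, among them P4HA2 and DDIT4 (1.5 and 1.60), and ANGPTL4, a secreted regulator of lipid use, fell from 42.7 and 41.4 to 7.1 and 8.9 CPM (-2.42 ± 0.12, adjusted p = 3.78e-20). Of 22 amino acid response and ATF4 targets 10 rose and 11 fell. DDIT3, which encodes the stress factor CHOP, rose from 31.1 and 34.2 to 128 and 111 CPM (1.88 ± 0.08, adjusted p = 1.11e-21), and SLC7A11, the cystine importer gene, fell from 234 and 239 to 79.5 and 83.5 CPM (-1.54 ± 0.05, adjusted p = 3.83e-23). AARS, the alanine tRNA synthetase gene, stood at 591 and 592 CPM on drug, 175 and 173 at 6 h and 477 and 472 at 24 h (1.45 ± 0.04, adjusted p = 2.06e-24), in a list of 18 with 10 higher and 7 lower. HSPA8, a constitutive chaperone gene, stood at 2289.8 and 2282 CPM on drug, 7069.6 and 7145 at 6 h and 3154 and 3169 at 24 h (-1.17 ± 0.04, adjusted p = 6.65e-23). Of 16 heat shock genes 7 fell and 5 rose, and of 18 ER chaperones 6 fell and 7 rose, with DNAJC3 at -1.24 and PDIA4 at 0.66. Of 24 lysosome genes 8 rose and 11 fell, with NPC2 at 1.18 and the autophagy receptor gene SQSTM1 at -0.81.

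The circadian and mitochondrial lists also split. Of 17 clock genes 6 rose and 8 fell. PER1 rose from 31.2 and 35.7 to 112 and 98 CPM (1.66 ± 0.08, adjusted p = 7.22e-20), the opposite direction to PER2, and NFIL3, a repressor of clock output, rose from 35.1 and 35.7 to 165 and 161 CPM (2.20 ± 0.06, adjusted p = 7.88e-26). CRY1, a repressor gene like PER2, stood at 23.2 and 21.3 CPM on drug, 59.2 and 53.9 at 6 h and 15.8 and 16.4 at 24 h (-1.82 ± 0.09, adjusted p = 1.43e-19). Of 13 mitochondrially encoded genes 6 rose and 4 fell, and MT-ND6, which lies on the other strand from the rest of the list, fell most in the list, from 177 and 183 to 42.4 and 50.1 CPM (-1.97 ± 0.06, adjusted p = 4.77e-24). MT-ND1 fell from 1063 and 1019 to 378 and 368 CPM (-1.48 ± 0.08, adjusted p = 3.46e-17). MT-ND4 and MT-ND5 rose by 0.62 and 0.78. All are subunits of respiratory complex I, and whether the counting used strand is not given in the sources used here. Of 23 respiratory chain genes of the nucleus 14 rose and 2 fell, none by 2-fold, with SDHA at 0.60 and CYCS, the cytochrome c gene, at -0.61. The plot of all lists places every member by its change and shows which lists lay to one side of 0.

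**Figure D4:**
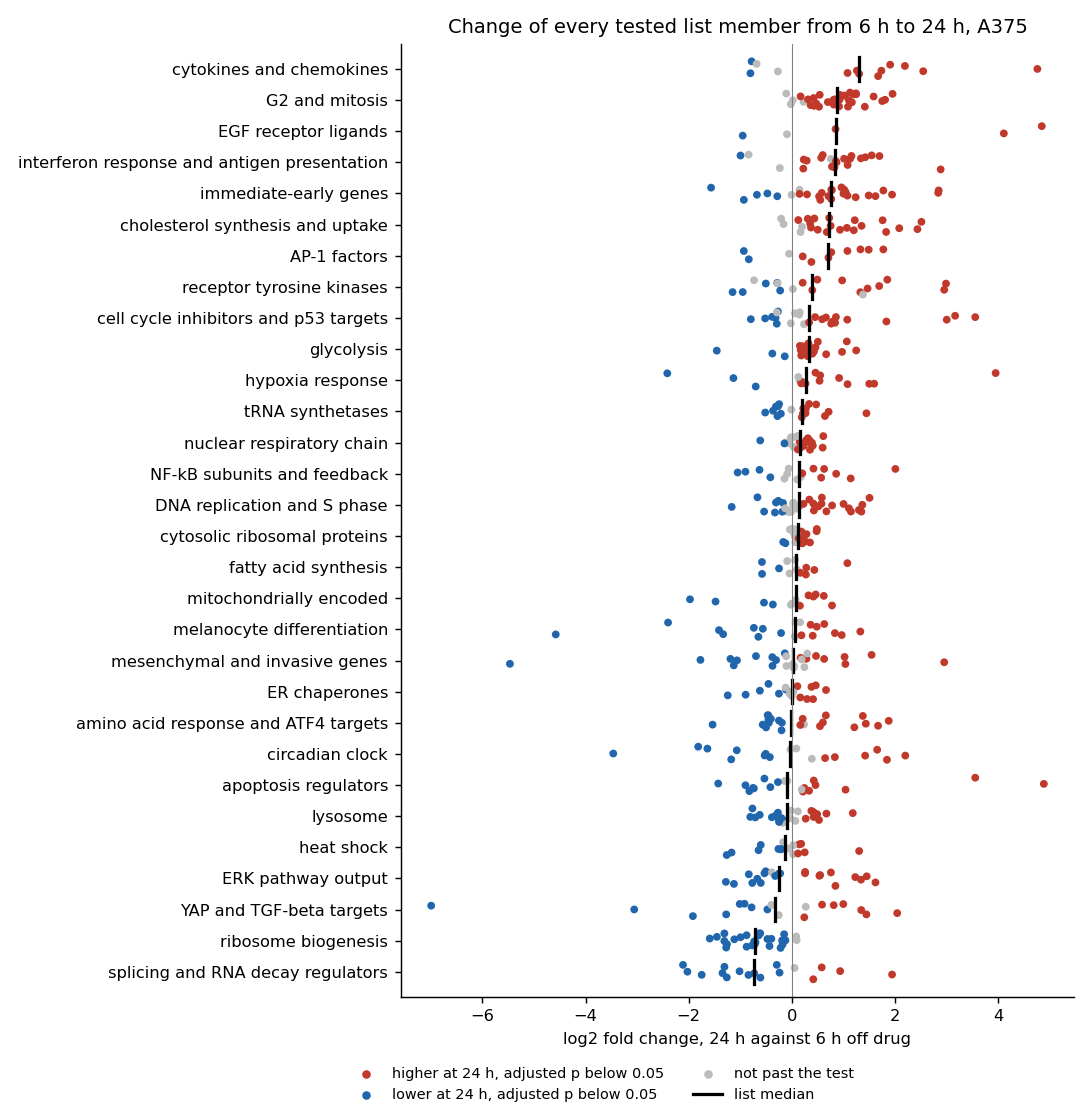
Log2 fold change of 24 h against 6 h (x axis) of every tested member of 30 gene lists in A375, ordered by median; red and blue points are genes higher and lower past the test, grey points did not pass, and black bars are list medians. G2 and mitosis has 28 red and 0 blue points and ribosome biogenesis 26 blue and 0 red; IL1A and ANKRD1, which had no counts at 6 h and at 24 h respectively, are drawn at fitted values that are no bound.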

How the data were processed

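RNA sequencing libraries of DR A375 melanoma cells were analysed, 2 per group in 4 groups (on drug, and 6, 24 and 48 h in DMSO). The deposited values are the authors' read counts per gene, not normalized, for 30813 genes. Per the submitters' processing notes, TopHat2 2.1.0, Bowtie 1.0.0 and GRCh38 were used; the counter, its annotation and its strand setting were not given in the sources used here. Library totals and the share of mitochondrial counts stand in the report.

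Counts were tested with edgeR 4.0.16 in R 4.3.3 (TMM scaling, filterByExpr with a minimum count of 10 and a minimum total of 15, quasi-likelihood test, Benjamini-Hochberg adjustment over all 14449 genes tested, threshold 0.05). All 8 A375 libraries entered 1 fit with 4 groups, which leaves 4 residual degrees of freedom; SEs and 95% intervals came from the same fit. CPM values used the TMM library sizes. The procedure was tested on simulated data. A group with no counts was set to 3 counts over its 2 libraries to give a bound.

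The members and lists were chosen with earlier results of these data known. Named were the 10 genes with the largest change in each direction (mean of at least 10 CPM), 6 of each time pattern, 4 of each list by adjusted p and up to 2 in the other direction, and a few genes of the ERK pathway and lineage; others are said to be chosen after their values were seen. Not every gene so named is described, and some are not reported here. Persisting and late genes were defined by intervals within 1.5-fold. Alternatives were RLE scaling, DESeq2 1.42.0, no filter, other sets of libraries, a replicate block, tests against 1.5-fold, other fold thresholds, and each library left out. Genes with near-identical copies (ribosomal proteins, HLA, HSPA1A and HSPA1B, histones) may share reads. Promoters came from RefSeq (GRCh38.p14).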

Additional observations from a re-analysis of the deposited data

How the results depend on the processing

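With 2 libraries per group, the fit leaves 4 residual degrees of freedom per gene. The p-values and intervals also draw on the spread shared across genes, and genes with few counts are the least certain. Of 190 genes chosen for naming, 145 kept their call and direction in each of the 15 alternatives that gave them a value, and none reversed. Tested against 1.5-fold, 42 lost the call; of these, ATP5G1 and COL1A1 lost it in 7 settings in all, PTPRC in 4, RPS3 and TRAF1 in 3 and ZEB2 in 2. Calls were gained for IL7R in 5 settings, SOX6 in 2 and SAMD9L in 1.

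Tested against a change of 1.5-fold, 4081 genes differed between 24 h and 6 h (2087 higher, 1994 lower), 4566 between 6 h and on drug (2239 and 2327) and 4257 between 24 h and on drug (2011 and 2246). DESeq2 gave 52 genes falling further, 83 persisting low and 128 falling late. With a threshold of 1.5-fold there were 1259 genes reversing after a rise, 1502 reversing after a fall, 283 rising further, 289 falling further, 569 rising late and 667 falling late, and with 3-fold 148, 254, 60, 23, 32 and 35. The cause was not tested where the tool differed; the thresholds change the counts by construction.

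Leaving out each library in turn gave 9037 to 10465 genes between 24 h and 6 h (4555 to 5334 higher, 4448 to 5154 lower), 9531 to 10993 between 6 h and on drug (4718 to 5280, 4813 to 5721) and 9413 to 10948 between 24 h and on drug (4800 to 5495, 4613 to 5483). The patterns ranged from 478 to 529 (reversing after a rise), 683 to 766 (reversing after a fall), 123 to 147 (rising further), 67 to 100 (falling further), 260 to 314 (persisting high), 90 to 146 (persisting low, 90 without the second 6 h library), 107 to 173 (rising late) and 154 to 218 (falling late).

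With the replicate number as a block, 9955 genes differed between 24 h and 6 h (5066 higher, 4889 lower), and no named gene changed its call. Libraries with the same number share only that number: the correlation of their deviations was 0.07 between 6 h and 24 h and -0.25 between 24 h and 48 h, so the number was not treated as a pairing.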

Other observations

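Gene families outside the lists above, picked by the start of their symbols after values had been seen and therefore not tested, are set beside the 35.5% higher and 34.2% lower among all genes tested. Their counts at 6 h against on drug are to be read against 35.1% higher and 38.1% lower among all genes. Of 448 zinc finger genes (symbols starting with ZNF), 222 (49.6%) were lower at 24 h than at 6 h and 61 (13.6%) higher, with a median log2 change of -0.42, and under RLE scaling 229 were lower and 56 higher. At 6 h this family had been balanced against on drug, with 123 higher and 142 lower. Of 37 DDX genes, which encode RNA helicases, 23 (62.2%) were lower and 3 (8.11%) higher (median -0.42), after 23 had been higher at 6 h and 7 lower. DDX5 averaged 1462 ± 21.8 CPM at 6 h and 337 ± 5.26 at 24 h (SD, n = 2 each), and DDX21, a helicase of the nucleolus, 1188 ± 11.9 and 541 ± 13.8 CPM. Of 36 RNA-binding motif genes (RBM), 26 (72.2%) were lower and 5 (13.9%) higher (median -0.36).

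Of 19 semaphorins, secreted and surface guidance proteins, 14 (73.7%) were higher at 24 h, 10 of them by at least 2-fold. There were 3 lower (15.8%), SEMA3C, SEMA3D and SEMA3E, and the median was 1.18. At 6 h, 12 of the 19 had been lower than on drug. SEMA6A averaged 12.8 ± 1.18 CPM at 6 h and 56.7 ± 2.64 at 24 h. Of 32 HOX genes, which pattern the body axis, 13 (40.6%, near the share of all genes) were higher and 4 (12.5%) lower (median 0.32), after 20 had been lower at 6 h. Of 15 histone genes with HIST symbols, 9 (60%) were higher and 1 (6.67%) lower (median 0.83). Their near-identical copies can share reads.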
